A study of Mus musculus with 18 samples.

Results

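The cytosolic ribosomal protein genes encode the protein part of the 40S and 60S subunits of the ribosome that translates nuclear mRNAs. In kidney RNA of WT and Clr-f-/- mice, 77 such genes were followed among the 53383 rows of the count table, 31 of the 40S and 46 of the 60S subunit. They were chosen as protein-coding genes named Rpl or Rps with a number and an optional suffix, together with Rplp0, Rplp1, Rplp2 and Rpsa, with at least 10 CPM (counts relative to the sum of all counts of their library) in every WT library. The Rps6k kinases were left out. Of 84 genes with such a name, 7 stayed under that minimum.

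The mice were C57BL/6, WT or Clr-f-/-, aged 7, 13 or 24 weeks, with 3 mice in each of the 6 groups and 1 library of total kidney RNA for each mouse. Clr-f is the product of Clec2h, a C-type lectin-related protein. The knockout was made by homologous recombination in C57BL/6 embryonic stem cells and its selection cassette was removed by a cross to mice that express Cre from a CMV promoter. According to the methods, mice of both genotypes were age- and sex-matched.

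Ribosomal proteins are made in near equal numbers, since each ribosome holds about 1 copy of most of them, and their mRNAs are among the most abundant of every cell. Most of these mRNAs start with a 5′ terminal oligopyrimidine (TOP) tract, a run of C and U directly at the cap, through which the mTORC1 pathway and its effector Larp1 set how strongly they are translated. Several members also act outside the ribosome. Rpl5 and Rpl11 bind Mdm2 and so connect ribosome assembly to p53, and Rps27a is made as a fusion of ubiquitin to a ribosomal protein. Rps6 is the substrate of the S6 kinases and is a usual readout of mTORC1 activity in kidney.

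The runs of C and T at the annotated starts were unequal among the members. RefSeq entries (GRCm38.p6) of 250 bases before and 50 bases after a start were found for 57 of the 77 members, with 68 starts in all. A run of at least 8 pyrimidines that reached to within 5 bases of the start was found at 22 of the 68 member starts (32.4%), compared with 9.72% of all 32851 starts in the table. The letters CTTTCC occurred on either strand in 47.1% of the member entries and in 26.6% of all entries. These matches describe the annotated sequence alone, and an annotated start need not be the capped base. Below, 25 bases on each side of the start are given for members that the results return to, with the longest run of C and T near the start in capitals.
Rpl18, chr7:45718046-45718095, + strand: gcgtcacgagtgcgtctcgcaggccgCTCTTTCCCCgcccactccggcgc
Rplp2, chr7:141447626-141447675, + strand: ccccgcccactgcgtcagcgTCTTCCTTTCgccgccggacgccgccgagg
Rps27, chr3:90213624-90213673, - strand: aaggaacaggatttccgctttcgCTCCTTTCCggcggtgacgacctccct
Rps6, chr4:86857343-86857392, - strand: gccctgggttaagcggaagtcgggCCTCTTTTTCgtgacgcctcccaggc
Rpl22l1, chr3:28805483-28805532, + strand: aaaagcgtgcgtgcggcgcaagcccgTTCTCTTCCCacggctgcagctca
Rps2, chr17:24720038-24720087, + strand: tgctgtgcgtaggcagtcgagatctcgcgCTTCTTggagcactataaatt
Rps16, chr7:28350664-28350713, + strand: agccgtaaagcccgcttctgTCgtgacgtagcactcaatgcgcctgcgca
Rps15, chr10:80292406-80292455, + strand: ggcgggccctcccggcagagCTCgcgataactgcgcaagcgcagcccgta
Rpl41, chr10:128549144-128549193, - strand: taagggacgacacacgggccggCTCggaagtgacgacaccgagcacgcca
The first 5 carry runs of 9 or 10 pyrimidines at or beside the start. The other four carry runs of 6, 2, 3 and 3.

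Library totals lay between 22193736 and 32742734 counts, so that 3 counts, the floor used here, correspond to 0.0916 to 0.135 CPM, far below the level of every member. The count of the targeted gene did not follow the labels, with a log2 fold change of Clec2h of -0.31 ± 0.12 (SE, n = 3 and 3, edgeR adjusted p = 0.233) at 7 weeks, -0.30 ± 0.37 (adjusted p = 0.497) at 13 weeks and 0.0070 ± 0.58 (adjusted p = 0.997) at 24 weeks. By RT-PCR the paper found no detectable Clr-f transcript in knockout kidney. The libraries labelled Clr-f-/- nevertheless held 425 to 3351 counts of Clec2h, and those labelled WT 626 to 3395. The allele lacks only part of the gene and these are counts of whole genes, so they check the labels only in part. Directions below refer to the libraries as labelled. The 3 libraries labelled Clr-f-/- at 13 weeks stood apart from the other 15. Across genes, which are not independent, their difference from the WT mean rose with the GC content of the transcript (Spearman's rho 0.68, 0.77 and 0.73, against -0.14 to 0.14 in the other 15), and they had 23732, 20767 and 19541 detected rows, against 24149 to 26113. One library, Clr-f-/- replicate 3 at 24 weeks, held 18176 counts of Xist, the RNA of the inactive X chromosome, while the other 17 held at most 26. Every 13-week comparison of the genotypes rests on the 3 libraries labelled Clr-f-/- at that age.

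In WT kidney the members spanned a wide range of levels. Per kilobase of transcript and averaged over the 9 WT libraries, Rplp1 was highest at 765 ± 67.1 normalized CPM per kb (mean ± SD, n = 9), followed by Rps2 at 681 ± 49.3 and Rpl41 at 621 ± 45.2. Rplp1 is a stalk protein that helps recruit elongation factors, Rps2 lies near the mRNA entry channel, and Rpl41 is the smallest protein of the ribosome. The values of these neighbours overlapped between libraries, with 690 to 887 for Rplp1, 599 to 753 for Rps2 and 548 to 683 for Rpl41. The lowest members per kb of transcript were Rps15a at 25.6 ± 0.905, Rpl22l1 at 28.0 ± 2.28 and Rpl7l1 at 33.2 ± 1.35. For Rps15a this place rests on an annotated principal transcript of 5154.5 bases. Per kb of coding sequence it stood at 339 ± 12.0, rank 61 of the 84 named genes, whereas Rpl22l1 (42.2 ± 3.43), Rpl23a (50.5 ± 3.72) and Rpl7l1 (117 ± 4.77) were the lowest 3 members. On that scale Rpl41, with 75 coding bases, was highest at 4661 ± 340.

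The paralogs are genes whose sequence resembles that of a ribosomal protein gene. Rps27l reached 316 ± 23.9 normalized CPM per kb of transcript in WT kidney, beside 386 ± 27.6 for Rps27. Rpl7l1 lay far below Rpl7 (320 ± 6.04), and the ratio of counts per length of Rpl22l1 to Rpl22 was 0.381 to 0.443 in the 9 WT libraries. Reads shared between such copies could have been assigned to either, and how the authors counted them is not given in the sources used here.

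Of the genes under the minimum, Rpl13a came closest, with 8.96 CPM in its lowest WT library, and Rpl3l (2.02), Rps10 (1.87), Rpl24 (0.402) and Rpl36al (0.354) lay further below. Rpl39l and Rpl10l had at most 1 count in any library. The members nearest to the minimum from above were Rpl22l1 at 14.2, Rpl23a and Rpl35. In the annotation, exons of Rpl13a, Rpl24, Rps10 and Rpl36al shared 29.4%, 47.0%, 20.6% and 24.5% of their bases with another gene model on the same strand, so the counts of these 4 genes are uncertain.

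With age, the members hardly moved in WT kidney. This comparison sets the base against which the libraries labelled Clr-f-/- are read. None of the 77 members passed the edgeR quasi-likelihood test (adjusted p under 0.05) between 13 and 7 weeks, 24 and 7 weeks or 24 and 13 weeks, where 3.49%, 11.3% and 0.843% of 14350 genes did. An unadjusted p under 0.05 was reached by 10, 7 and 0 members, beside 22.0%, 27.9% and 15.4% of all genes. The DESeq2 Wald test called 1, 2 and 0 members, beside 7.33%, 14.1% and 3.23% of all genes. The median log2 difference of the members was 0.023, -0.0015 and -0.013. The spread between mice was small, with a median SD of 0.058, 0.067 and 0.097 on the log2 scale at 7, 13 and 24 weeks.

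Single members came close to the threshold. Rpl3, a core protein next to the peptidyl transferase center, had 368, 373 and 373 normalized CPM in the WT libraries of 7 weeks. The values of the older mice were 333, 326 and 335 (13 weeks) and 338, 344 and 323 (24 weeks). All 6 older libraries lay below all 7-week libraries (24 against 7 weeks: log2 difference -0.15 ± 0.05, edgeR adjusted p = 0.0795). Rpl22l1 was also below its 7-week values in all 6 older libraries (-0.22 ± 0.07, edgeR adjusted p = 0.069). Rpl8, which contacts the ribosomal RNA of the 60S subunit, was above them in all 6 (0.21 ± 0.06, edgeR adjusted p = 0.062).

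**Figure D1:**
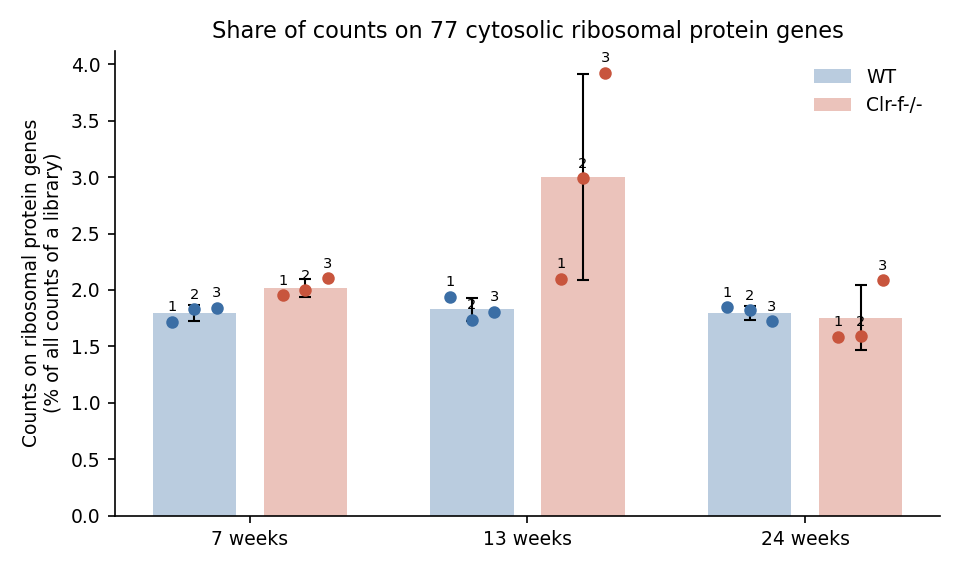
Counts on the 77 ribosomal protein genes as percent of all counts of a library, for WT and Clr-f-/- at 7, 13 and 24 weeks. Bars give the mean of 3 libraries, error bars the SD, and numbered points the libraries. The 3 Clr-f-/- libraries lie above the 3 WT libraries at 7 and at 13 weeks, and on both sides of them at 24 weeks.

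Together the members took 1.72%, 1.83% and 1.84% of all counts in the WT libraries of 7 weeks, and 1.95%, 2.00% and 2.10% in the libraries labelled Clr-f-/-. In 13-week kidneys the shares were 1.94%, 1.74% and 1.81% in WT and 2.10%, 2.99% and 3.92% in Clr-f-/-. The shares of 24 weeks were 1.85%, 1.82% and 1.72% in WT and 1.58%, 1.59% and 2.09% in Clr-f-/-. The 2 groups did not overlap at 7 and 13 weeks and overlapped at 24 weeks, where the library with Xist counts held the highest share of its age. The smallest two-sided p that an exact permutation test can give for 3 against 3 is 0.1, so no test is given for this share. In whole tissue, a change in the RNA of a cell type and a change in the number of its cells cannot be told apart.

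At 7 weeks, nearly all members were slightly higher in the libraries labelled Clr-f-/-, and none passed the test. The log2 fold change lay above 0 for 71 of 77 members, with a median of 0.11 over the members and 0.0074 over all 14226 genes tested. It was above 0 for all 31 members of the 40S subunit (median 0.12) and for 40 of 46 of the 60S subunit (median 0.096). The edgeR test called 0 members, where it called 0.464% of all genes. The smallest adjusted p of a member was 0.112. An unadjusted p under 0.05 was reached by 32 members (41.6%) and by 19.7% of all genes. The DESeq2 Wald test called 5 members higher, beside 2.4% of all genes, and limma voom none. All 3 Clr-f-/- libraries lay above all 3 WT libraries for 54 members, where 12.3% of all genes did so. They lay below for 2 members, Rpl3 and Rpl7l1, where 12.7% of all genes did so.

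Rps28, a small protein near the mRNA exit of the 40S subunit, had 115, 131 and 127 normalized CPM in WT and 146, 142 and 152 in Clr-f-/-. Every Clr-f-/- library was above every WT library (log2 fold change 0.24 ± 0.06, edgeR adjusted p = 0.12). Rpl31, which lies at the rim of the exit tunnel, had 158, 166 and 165 in WT and 187, 185 and 183 in Clr-f-/-. Its difference had the smallest p of the members (0.18 ± 0.05, edgeR adjusted p = 0.112). Rps29, a zinc-binding protein of the 40S head, had 167, 178 and 165 in WT and 200, 187 and 200 in Clr-f-/- (0.20 ± 0.05, edgeR adjusted p = 0.124). For Rpl31 and Rps29 the groups did not overlap either.

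The stalk proteins showed differences of the same small size, 0.088 for Rplp0, 0.15 for Rplp1 and 0.14 for Rplp2. Those of Rps6, Rps3, Rps19 and Rpsa were 0.081, 0.065, 0.11 and 0.13. Rpl3 (-0.050), Rpl7l1 (-0.051), Rpl22l1 (-0.035), Rpl4 (-0.020), Rpl5 (-0.018) and Rpl10 (-0.0034) were the 6 members with a negative value, although with library totals alone all 77 members were positive, with a median of 0.17 beside 0.073 for all genes. Rpl11, the partner of Rpl5 in the 5S particle, stood at 0.10.

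Measures beside the ribosomal proteins also moved at 7 weeks. Of 10 endothelial and stromal markers, 3 were called higher (Col1a1, Col3a1 and Acta2, with Col1a1 at 34.1, 35.5 and 39.1 normalized CPM in WT and 84.4, 89.4 and 95.9 in Clr-f-/-), and their summed level was 333 to 414 in WT and 534 to 667 in Clr-f-/-. The summed level of 6 red blood cell markers was 86.4 to 201 in WT and 167 to 521 in Clr-f-/-. The 3 Clr-f-/- libraries had a slightly positive relation to GC content (rho 0.093 to 0.14, against -0.035 to 0.054 in WT). All 6 podocyte markers were positive and none was called, with a summed level of 282 to 347 in WT and 376 to 415 in Clr-f-/-. Of 11 proximal tubule markers, 3 were positive (median -0.22) and none was called, with 15022 to 17829 in WT and 13265 to 16054 in Clr-f-/-. The part of these in the member values was not tested. With offsets for GC content and length, the member median was 0.087 with 71 members above 0, and an unadjusted p under 0.05 was reached by 19 members (24.7%) and by 18.5% of all genes.

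**Figure D2:**
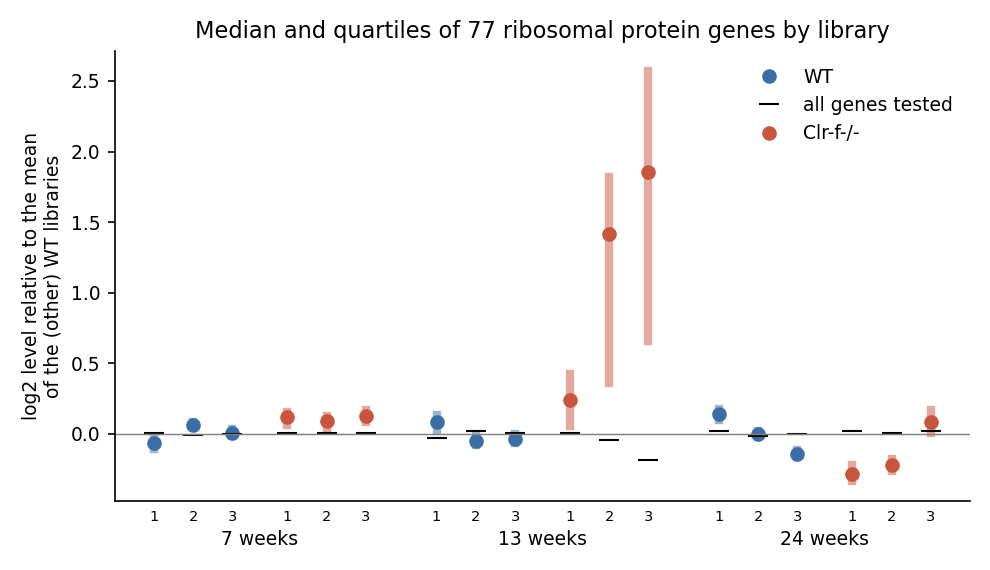
Median (points) and quartiles (thick lines) over the 77 ribosomal protein genes of the log2 level of each library relative to the mean WT level of its age, where a WT library is set against the other 2. Numbers below are replicates, and dashes mark the median of all genes tested. The Clr-f-/- medians are 0.12, 0.091 and 0.13 (7 weeks), 0.24, 1.41 and 1.85 (13 weeks), and -0.28, -0.22 and 0.086 (24 weeks).

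At 13 weeks, the members moved furthest and in both directions. With TMM scaling, 41 of 77 members were called higher and 2 lower in the libraries labelled Clr-f-/-, where 21.9% of 13864 genes were called higher and 16.9% lower. The median log2 fold change was 1.38 over the members and -0.038 over all genes. The smallest edgeR adjusted p of a member was 0.04. The markers Aqp2 and Slc5a2 had that same adjusted p with unadjusted edgeR p of 0.000625 and 0.00783, so it does not rank genes. By subunit, 17 of 31 members of the 40S and 24 of 46 of the 60S subunit were called higher, and 1 of each was called lower. All 3 Clr-f-/- libraries lay above WT for 55 members (32.5% of all genes) and below for 12 (36.3% of all genes).

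The libraries did not contribute alike. Relative to the WT mean, the median member stood at 1.18-fold in replicate 1, 2.67-fold in replicate 2 and 3.62-fold in replicate 3. In replicate 3 the ratios spanned 0.148 for Rpl22l1 to 19.5 for Rps14. The calls depended on single libraries. Leaving out any 1 of the 3 WT libraries or Clr-f-/- replicate 2 or 3 gave 0 calls with edgeR, while 33 to 40 members (42.9% to 51.9%) had an unadjusted p under 0.05, as had 35.8% to 44.7% of all genes. Without Clr-f-/- replicate 1 there were 58 members called higher and 9 lower, beside 37.3% and 41.8% of all genes. Under each of these omissions 63 or 64 members were positive.

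**Figure D3:**
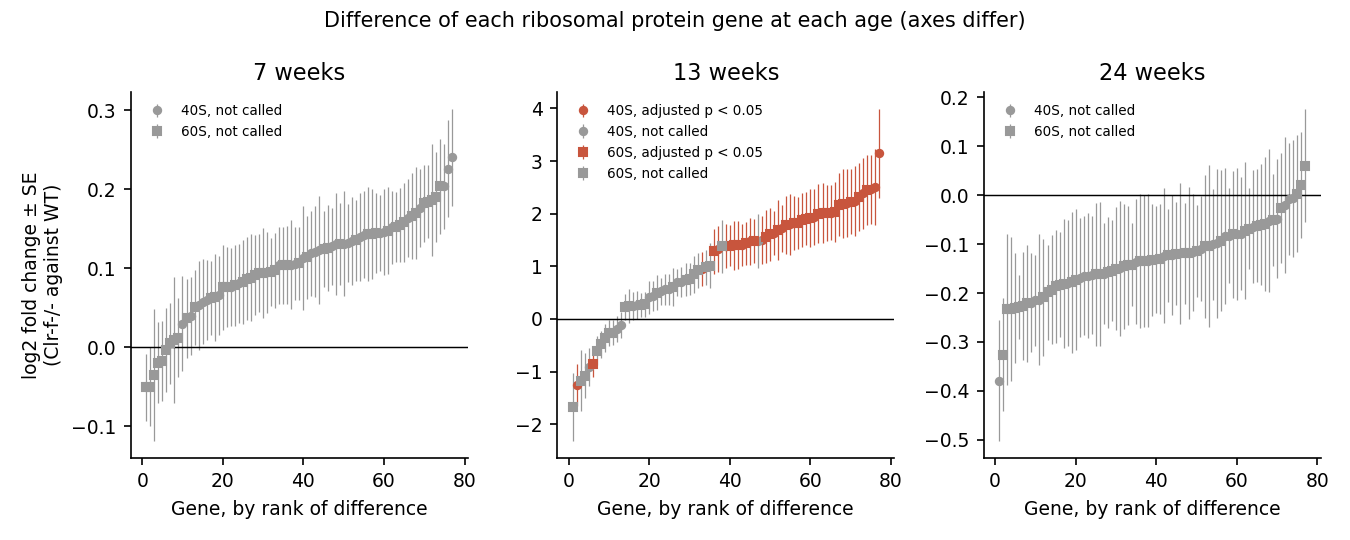
Log2 fold change (Clr-f-/- against WT) with its SE for each of the 77 ribosomal protein genes, ranked within each age, with circles for 40S and squares for 60S genes and red for an adjusted p under 0.05. At 7 weeks 71 genes lie above 0, at 13 weeks 64, and at 24 weeks 3. The vertical axes differ between ages.

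The largest differences were those of Rps14, Rps2, Rps16, Rpl18 and Rps15. Rps14, which lies in the platform of the 40S subunit, had 271, 253 and 262 normalized CPM in WT and 403, 1444 and 5105 in Clr-f-/-. All 3 Clr-f-/- values were above WT and far from each other (log2 fold change 3.14 ± 0.85, edgeR adjusted p = 0.04). Rps2 (chr17:24718116-24721929), the most abundant member in CPM, had 626, 590 and 586 in WT and 802, 2650 and 6839 in Clr-f-/- (2.51 ± 0.72, edgeR adjusted p = 0.04). Rps16, with its C-terminal tail near the decoding site, had 183, 170 and 167 in WT and 263, 770 and 1842 in Clr-f-/- (2.47 ± 0.66, edgeR adjusted p = 0.04). Replicate 1 was thus nearest to WT for each of these genes. When single libraries were left out, the difference ran from 1.83 to 3.64 for Rps14, from 1.53 to 2.97 for Rps2 and from 1.58 to 2.91 for Rps16.

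Rpl18, a 60S protein with a pyrimidine run beside its annotated start, had 179, 179 and 182 in WT and 259, 827 and 1872 in Clr-f-/- (2.45 ± 0.66, edgeR adjusted p = 0.04). Rps15, a protein of the 40S head, had 261, 241 and 246 in WT and 335, 1064 and 2525 in Clr-f-/- (2.39 ± 0.68, edgeR adjusted p = 0.04). For both, the 2 groups did not overlap, and over the omissions Rpl18 ran from 1.60 to 2.90 and Rps15 from 1.498 to 2.84. The stalk proteins Rplp0 (1.88), Rplp1 (1.79) and Rplp2 (2.17) were called higher as well, as were Rps3 (1.94), Rps19 (1.38), Rpsa (2.24), Rpl11 (2.19), Rpl10 (1.41), Rpl41 (1.91), Rps27 (2.02) and Rpl39 (1.92). Rps6 (0.70, edgeR adjusted p = 0.065), Rpl3 (0.75, adjusted p = 0.084) and Rps4x (0.71, adjusted p = 0.079) did not pass.

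The 2 members called lower were Rps27a and Rpl30. Rps27a (chr11:29545846-29548109) had 177, 174 and 178 normalized CPM in WT and 118, 59.2 and 43.5 in Clr-f-/-. All 3 Clr-f-/- values were below WT (log2 fold change -1.25 ± 0.40, edgeR adjusted p = 0.044). Rpl30 (chr15:34440505-34443640), a protein at the interface of the subunits, had 57.7, 55.8 and 56.7 in WT and 40.4, 28.1 and 26.0 in Clr-f-/- (-0.85 ± 0.26, edgeR adjusted p = 0.043). Here, too, every Clr-f-/- library was below every WT library, and with the offsets both genes stayed negative, at -1.47 (adjusted p = 0.079) and -1.65 (adjusted p = 0.068). Over the omissions of single libraries Rps27a ran from -1.80 to -0.98 and Rpl30 from -1.09 to -0.72.

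The lowest value was that of Rpl22l1, with 12.4, 11.8 and 11.6 in WT and 7.83, 1.38 and 1.77 in Clr-f-/- (-1.68 ± 0.65, edgeR adjusted p = 0.068), and -2.96 to -1.28 when single libraries were left out. Among the other negative members that did not pass, the lowest were Rpl5 (-1.17), Rpl4 (-1.08), Rps24 (-0.91), Rpl23 (-0.60) and Rpl36a (-0.48). Thus Rpl5 and Rpl11, both proteins of the 5S particle, stood on opposite sides of 0. In the paralog pairs, the ratio of counts per length of Rps27l to Rps27 was 0.859 to 0.880 in WT and 0.618, 0.204 and 0.0982 in Clr-f-/-. That of Rpl7l1 to Rpl7 was 0.106 to 0.109 in WT and 0.140, 0.205 and 0.163 in Clr-f-/-. For Rpl22l1 to Rpl22 it was 0.391 to 0.427 in WT and 0.283, 0.0531 and 0.0883 in Clr-f-/-. Transcript GC content was 44.9% for Rps27l and 50.7% for Rps27, 49.2% for Rpl7l1 and 45.8% for Rpl7, and 40.6% for Rpl22l1 and 49.0% for Rpl22. It was 42.7% for Rpl5 and 52.9% for Rpl11. The part of GC content in these differences was not tested.

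**Figure D4:**
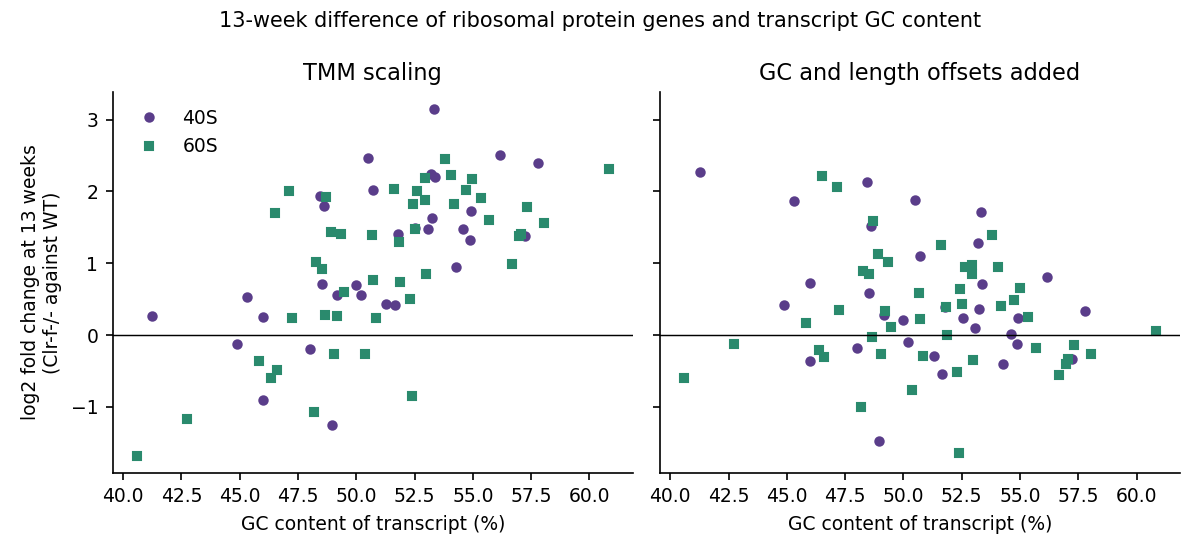
Log2 fold change at 13 weeks (Clr-f-/- against WT) of each of the 77 ribosomal protein genes against the GC content of its principal transcript in percent, with TMM scaling (left) and with GC and length offsets added (right). Circles are 40S and squares 60S genes. On the left the genes below 0 have a median GC content of 46.6% and the called higher ones 53.3%, and on the right the median difference is 0.27.

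The 13-week differences were ordered by base composition. The 41 members called higher had a median transcript GC content of 53.3% (46.5% to 60.8%), the 23 positive members that were not called ranged from 41.3% to 57.0%, and the 13 negative members 46.6% (40.6% to 52.4%). Across the 77 members Spearman's rho between the log2 fold change and GC content was 0.61, and across 13829 genes it was 0.78. These are descriptions across genes that share the same 6 libraries. At 7 and 24 weeks rho over the members was 0.29 and -0.30. Between the log2 fold change and the pyrimidine run at the annotated start, rho was -0.011 over the 57 members with an entry. A run of at least 8 was found in 12 of 32 members called higher and 10 of 25 not called. An annotated start need not be the capped base and 20 members had no entry, so these values do not measure the TOP tract.

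The calls depended on how the libraries were made comparable. With offsets that remove each library's trend with GC content and length, edgeR called 0 members and 3 of 13864 genes, 29 members (37.7%) had an unadjusted p under 0.05, as had 34.0% of all genes, and the member median was 0.27 beside -0.14 for all genes, with 50 members positive. With library totals alone it called 0 members, with 42 (54.5%) at an unadjusted p under 0.05, as were 38.7% of all genes, and the medians were 0.65 for the members and -0.55 for all genes. The excess of the member median over all genes was thus above 1 with TMM or totals and under 0.5 with the offsets. Of the 5 largest differences, Rps14 stood at 1.72, Rps2 at 0.81, Rps16 at 1.89, Rpl18 at 1.39 and Rps15 at 0.33 with the offsets, none of them called, while Rplp1 (-0.15) and Rps19 (-0.33) changed sign.

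Markers of other cell types also moved at 13 weeks. All 5 tested red blood cell markers were called higher, with a summed level of 99.6 to 255 in WT and 476 to 3583 in Clr-f-/-. Proximal tubule markers summed to 12296 to 13646 in WT and 15608 to 43805 in Clr-f-/-, with 5 of 11 called higher and 1 lower. Adipocyte markers summed to 55.4 to 70.4 in WT and 87.2 to 1241 in Clr-f-/-, with 5 of 6 tested called higher. Loop and distal nephron markers summed to 3994 to 4340 in WT and 4814 to 5883 in Clr-f-/-, with 4 of 11 called higher and 3 lower. Immune cell markers summed to 52.8 to 66.2 in WT and 61.3 to 199.9 in Clr-f-/-, with 3 of 7 tested called higher and 1 lower. The sums of endothelial and stromal markers (266 to 422 and 376 to 535) and of podocyte markers (195 to 244 and 219 to 289) overlapped between WT and Clr-f-/-, with 2 of 10 and 1 of 6 called higher. Their part in the member values was not tested.

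**Figure D5:**
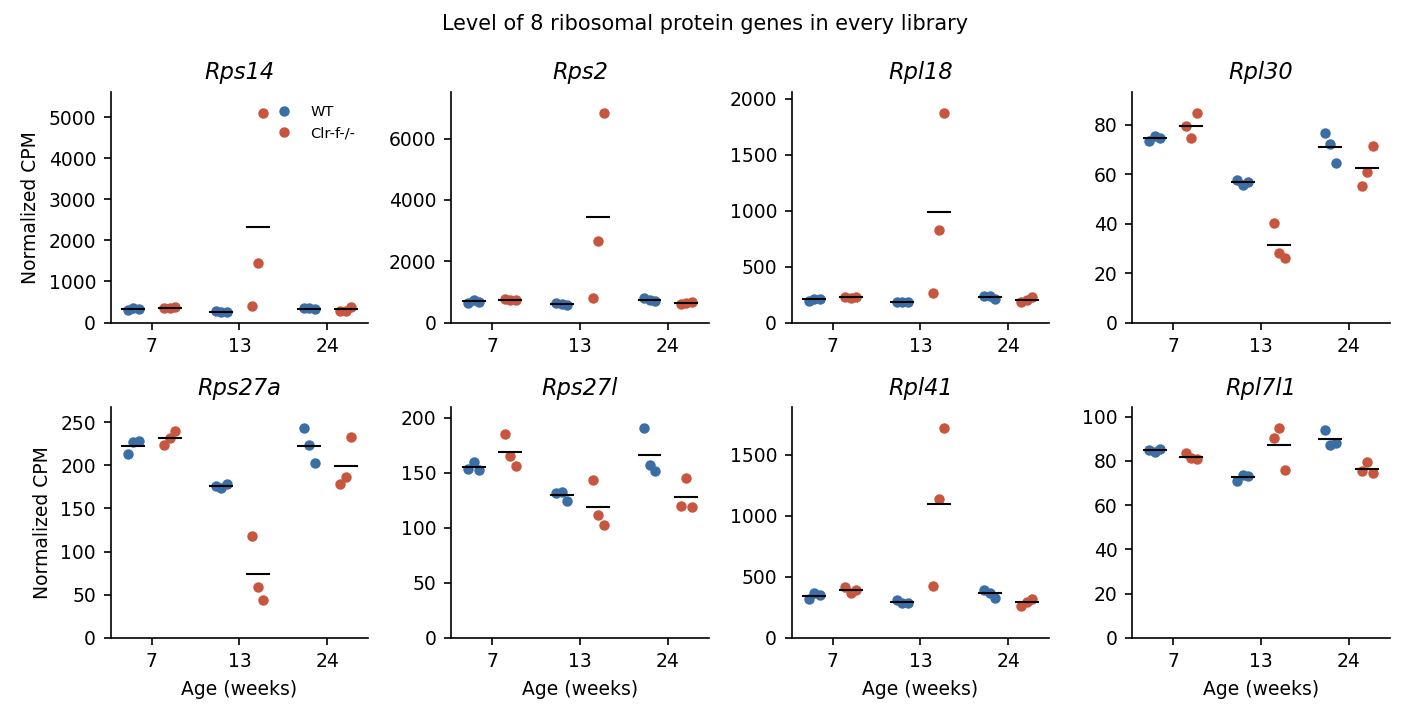
Level (normalized CPM, vertical axis) of 8 ribosomal protein genes in each WT and Clr-f-/- library at 7, 13 and 24 weeks, with the group mean as a line. Rps14, Rps2 and Rpl18 were called higher at 13 weeks, Rpl30 and Rps27a lower, and for Rps27l, Rpl41 and Rpl7l1 all 3 Clr-f-/- libraries lie below WT at 24 weeks. Values were scaled within each age.

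At 24 weeks, the members were slightly lower in 2 of the 3 libraries labelled Clr-f-/-, and none passed the test. The log2 fold change was below 0 for 74 of 77 members, with a median of -0.13 beside 0.021 over all 14270 genes. The edgeR test called 0 members (0.0491% of all genes), 3 members had an unadjusted p under 0.05 (18.2% of all genes), the DESeq2 Wald test called 0 and limma voom 1, lower (4.4% of all genes). With voom, which weights libraries by their quality, the median was -0.22 with 0 members positive, and 49 members (63.6%) had an unadjusted p under 0.05, as had 30.8% of all genes. The smallest adjusted p of a member was 0.182. All 3 Clr-f-/- libraries lay below WT for 6 members (12.3% of all genes) and above WT for 0 (14.1% of all genes).

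The share of members below the WT mean was 77 of 77 in replicate 1, 76 of 77 in replicate 2 and 16 of 77 in replicate 3, the library with Xist counts. Without replicate 3, all 77 members were negative with a median of -0.26, 62 (80.5%) had an unadjusted p under 0.05, as had 24.5% of all genes, and edgeR called 0 members and 2.06% of all genes. The WT libraries also differed, with member medians of 0.14, 0.0018 and -0.15 against the other two. Over all 6 libraries, GC and length offsets gave a median of -0.0096 with 37 members positive, and library totals alone gave -0.043 with 21 positive, beside 0.11 for all genes.

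The 6 members whose groups did not overlap were Rps27l, Rpl41, Rpl7l1, Rps2, Rpsa and Rpl22l1. Rps27l (chr9:66946086-66949516), the paralog of Rps27 and a known p53 target, had 190, 157 and 152 normalized CPM in WT and 119, 145 and 119 in Clr-f-/- (log2 fold change -0.38 ± 0.12, edgeR adjusted p = 0.211). Rpl41 (chr10:128548114-128549305) had 391, 371 and 328 in WT and 257, 292 and 320 in Clr-f-/- (-0.33 ± 0.12, edgeR adjusted p = 0.23). Rpl7l1 (chr17:46773907-46782672), which takes part in the assembly of the 60S subunit, had 93.8, 87.3 and 88.0 in WT and 75.4, 79.7 and 74.6 in Clr-f-/- (-0.23 ± 0.07, edgeR adjusted p = 0.182). In replicate 3, where most members were above the WT mean, Rps27l was the lowest member of all at 0.716 of it. Without that replicate Rps27l stood at -0.33, Rpl41 at -0.40 and Rpl7l1 at -0.21.

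The other direction was held by 3 members, Rpl3 (0.060 ± 0.12), Rpl22 (0.020 ± 0.11) and Rpl5 (0.0032 ± 0.12), with edgeR adjusted p of 0.82, 0.946 and 0.995, and each negative without replicate 3. The stalk proteins Rplp0, Rplp1 and Rplp2 stood at -0.12, -0.23 and -0.18, and Rps6, Rps3, Rps19 and Rps27a at -0.10, -0.0064, -0.14 and -0.16. Red blood cell markers also were lower, with a summed level of 293 to 357 in WT and 127 to 197 in Clr-f-/-, and none of the 5 tested was called. Loop and distal nephron markers summed to 5197 to 6109 in WT and 6217 to 7740 in Clr-f-/-, with 0 of 11 called. Podocyte markers summed to 546 in the library with Xist counts and to 223 to 333 in the other 5. Proximal tubule markers summed to 15248 to 18309 in WT and to 13887, 14498 and 15421 in Clr-f-/- replicates 1, 2 and 3. Immune cell markers summed to 89.0 to 92.6 in WT and to 76.7, 65.1 and 96.2 in these replicates. The sums of endothelial and stromal markers and of adipocyte markers overlapped between WT and Clr-f-/-. The part of these in the member values was not tested.

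Whether the genotype difference changed with age was tested directly. Between 24 and 7 weeks, edgeR's interaction test over 12 libraries called 0 members, where 0.852% of 14788 genes were called, and 20 members (26.0%) had an unadjusted p under 0.05, as had 18.5% of all genes. The median change of the members was -0.25, and the most negative was Rpl41 at -0.51 ± 0.14 (edgeR adjusted p = 0.094). Without the 24-week library with Xist counts, 49 members were called and all 49 were lower, where 4.68% of genes were called lower, and the median was -0.37. With GC and length offsets over all 12 libraries, 0 members were called, 8 (10.4%) had an unadjusted p under 0.05, which is below the 16.7% of all genes, and the median was -0.11 with 13 members positive. Of the 12 libraries, the one with Xist counts was the one whose omission gave any member call. Then Rpl41 stood at -0.59 (adjusted p = 0.02), Rpl38 at -0.57 (adjusted p = 0.016), Rplp1 at -0.56 (adjusted p = 0.013), Rps29 at -0.56 (adjusted p = 0.016) and Rpl39 at -0.55 (adjusted p = 0.014), all in the edgeR fit.

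Over all 3 ages and 18 libraries, the joint interaction test called 60 of 77 members, where it called 54.2% of 14932 genes. With GC and length offsets it called 21 members (25.8% of all genes) and with library totals alone 33 (37.7% of all genes). Without the library with Xist counts it called 62 members and 54.2% of genes. This test includes the 13-week libraries, whose member values carry the relation to GC content given above.

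Other genes of protein synthesis were taken from lists, whose 13-week counts stand beside the 21.9% of all genes called higher and 16.9% called lower. The first list held 22 genes with TOP tracts or functions in translation outside the 77 members, including the ribosomal protein gene Fau. Of these genes, 0 were called at 7 and at 24 weeks. At 13 weeks, 10 were called higher (45.5%) and 2 lower (9.09%). The list's medians were -0.0016, 0.60 and -0.025 at 7, 13 and 24 weeks. Its genes Eif3k, Eif3f and Eif3h, subunits of the initiation factor eIF3, were called higher at 13 weeks (2.04, 1.96 and 1.54). At 7 weeks the list's median was thus near 0, whereas 71 of 77 members were positive. Eif4b, an activator of the helicase eIF4A, had in 7-week kidney 408, 417 and 396 normalized CPM in WT and 365, 348 and 347 in Clr-f-/- (log2 fold change -0.21 ± 0.052, edgeR adjusted p = 0.117). At 24 weeks it had 303, 303 and 312 in WT and 386, 378 and 403 in Clr-f-/- (0.35 ± 0.075, edgeR adjusted p = 0.151). At both ages its groups did not overlap, in the direction opposite to that of most members. Of the next genes of the list by p, Eif3e (-0.11) at 7 weeks and Npm1 (0.28) at 24 weeks also stood opposite to most members. Fau (0.10) at 7 weeks, itself a ribosomal protein gene, and Eef1d (-0.18) at 24 weeks had the sign of most members. None of the 4 was called.

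Of 34 other initiation factors, 10 were called higher (29.4%) and 8 lower (23.5%) at 13 weeks and none at 7 and 24 weeks. Eif3a, the scaffold of eIF3, was called lower (-1.998 ± 0.361, edgeR adjusted p = 0.04), with 214, 213 and 209 normalized CPM in WT and 63.0, 29.4 and 66.8 in Clr-f-/-. Eif5b (-1.26) and Eif5 (-2.12) were called lower as well. Of 66 tested genes of ribosome biogenesis, 11 were called higher (16.7%) and 7 lower (10.6%) at 13 weeks, both below the share of all genes, and none at 7 and 24 weeks. The 3 with the smallest p at 13 weeks were Ddx10 (-2.69), nucleolin, Ncl (-1.97), and Bysl (1.38). The median of the list was -0.023, -0.14 and 0.00068 at 7, 13 and 24 weeks. Of 29 tested genes of mTORC1 and its translation branch, 9 were called higher (31.0%) and 5 lower (17.2%) at 13 weeks, with Tsc2 at 1.46, Maf1 at 2.52 and Larp4 at -1.96, and none at 7 and 24 weeks.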

How the data were processed

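Total kidney RNA (TRIzol) was sequenced on an Illumina HiSeq platform with paired ends. Per the methods, the authors checked reads with FastQC 0.11.5, dropped those of low quality, mapped them with STAR 2.7.5a to GRCm38.p6 and removed duplicates, a step that can cap short abundant transcripts such as these. The deposited values are whole-number counts per gene, without normalization, although named FPKM by the study. Handling of strand and of reads with several positions is not given in the sources used here. Gene names, lengths and GC content came from the GENCODE M21 annotation, which matched 99.5% of rows. Of the rows, 41967 are gene and 11416 transcript identifiers, and all members are on gene rows.

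Counts were tested in R 4.3.3 with edgeR 4.0.16 (TMM, at least 1 CPM in at least 3 libraries, quasi-likelihood test, Benjamini-Hochberg adjustment over all genes, threshold 0.05), at each age on its 6 libraries, across ages on the 9 WT libraries, and for interactions on 12 or 18 libraries. The SE of an edgeR log2 fold change was taken as its absolute value divided by the square root of the test's F statistic. Normalized CPM are TMM-scaled within each fit. Level per length used the principal transcript. Alternatives were DESeq2 1.42.0, limma 3.58.1 voom, other scalings and filters, GC and length offsets (splines with 5 degrees of freedom), a replicate block and each library left out. The procedure was tested on simulated counts. Plots were drawn with matplotlib 3.10.9.

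Named genes are, at each age, the 5 largest differences in each direction among called members, or the 3 with the smallest p where fewer than 3 were called, with fixed members of known function and all paralogs. Genes of other lists are among the 3 with the smallest p. Others (Rpl4, Rps24, Rpl23, Rpl38, Rps29 and Rpl39 in the interaction, and Rpl8) were named after their values were seen. The members and lists were chosen with earlier results of these data known.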

Additional observations from a re-analysis of the deposited data

Results flagged for a closer look

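The genotype difference of 60 of 77 members differed between ages in the joint test over 18 libraries, which called 54.2% of all genes. The difference between 24 and 7 weeks was called for 49 members when Clr-f-/- replicate 3 of 24 weeks was left out, where 8.77% of all genes were called, and for 0 with it. That library held 18176 counts of Xist, outside the comparisons above and above the at most 26 counts in every WT library, although mice were sex-matched per the methods.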

How the results depend on the processing

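At 7 weeks the count of members called was 0 and became 5 with the DESeq2 Wald test (4.66% of all genes called) and 1 with no filter on low counts (1.30% of members beside 4.22% of all genes), both higher. The 7-week median of 0.11 was 0.17 with library totals alone and 0.088 to 0.13 when single libraries were left out. At 13 weeks, 43 calls became 0 with library totals alone, 0 with GC and length offsets, 68 with all 18 libraries in 1 fit (71.7% of all genes), 65 with limma voom (72.6% of all genes), and 0 to 67 when single libraries were left out. The 13-week median of 1.38 became 0.65 with totals, 0.27 with the offsets, 0.24 with the replicate block and offsets, and 0.93 to 1.70 when single libraries were left out. At 24 weeks, limma voom called 1 member (8.81% of all genes), and the median was -0.22 with it and ran from -0.26 to -0.066 when single libraries were left out. Between WT ages, the DESeq2 Wald test called 1 (13 against 7 weeks) and 2 (24 against 7 weeks), the offsets 1, beside 11.2% of all genes, and single omissions 0 to 1 (24 against 7 weeks, the 1 without WT 24 weeks replicate 3 beside 5.69% of all genes). The interaction counts were 0 to 49 (24 against 7 weeks) and 49 to 75 (3 ages) when single libraries were left out, where 8.77% of all genes were called beside the 49 between 24 and 7 weeks, 43.5% beside the 49 over 3 ages (without Clr-f-/- 13 weeks replicate 3) and 77.1% beside the 75 (without Clr-f-/- 13 weeks replicate 1), and for 3 ages 33 with totals and 21 with the offsets. The cause was not tested.

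With library totals alone, Rpl7l1, Rpl3 and Rpl22l1 turned positive at 7 weeks (0.015, 0.017 and 0.031), and Rpl22l1 also without Clr-f-/- replicate 2 (-0.090 to 0.031). At 24 weeks Rpl3 was -0.025 with voom and -0.061 to 0.12 over omissions, Rpl22 was -0.0067 with 18 libraries, -0.034 with voom and -0.063 to 0.095 over omissions, and Rpl5 was -0.0056 with the replicate block, -0.0074 with DESeq2's size factors, -0.0062 with its Wald test, -0.024 with 18 libraries, -0.11 with voom and -0.11 to 0.094 over omissions. Of counts that are not mitochondrially encoded, members took 1.99% and 2.22% at 7 weeks (WT and Clr-f-/-), 2.02% in WT at 13 weeks and 1.97% in WT at 24 weeks.

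Replicate numbers mark different mice, and same-numbered libraries did not deviate together (r of -0.28 to 0.28). The replicate block gave 23 calls at 13 weeks (29.9% of members, below the 33.9% of all genes called), 4 with offsets added (5.19% of members beside 4.86% of all genes), and 0 at 7 and 24 weeks.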
